A study of Mus musculus with 2 samples.

Results

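Fibroblast growth factor (Fgf) genes are described here by the accessible chromatin around them in the embryonic mouse striatum. The members are 34 listed genes, of 21770 protein-coding genes in the gene table, and encode Fgf ligands, receptors and feedback or target proteins. A member's locus is its RefSeq gene span with 50 kb on each side, in mm10, and the peaks are all deposited peaks that overlap a locus by at least 1 bp. The 34 loci held 289 different peaks of the 87174 in the series. Within the listed loci, peaks were taken by position alone.

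The data come from single-nucleus ATAC-seq, in which a transposase tags open DNA in nuclei that are barcoded in droplets. The 2 libraries form 1 group of wild-type embryos at E14.5, with a strain background of C57BL/6J and CD1 and no transgene, treatment or second genotype in the labels. Their deposited result is 1 list of peak positions without counts, so depth, the number of nuclei and the spread between libraries are unknown here. The labels do not tie the libraries to separate embryos.

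Every value below is therefore a count or a width in 1 peak set, without replicate error and without a test. Peaks are not told apart by cell type either, and a peak present in few nuclei cannot be told apart from a weak peak in many. Of 15 marker genes of the striatum and ganglionic eminence, all 15 had a gene-end peak, a peak within 1 kb of either end of the gene span, and 11 lay within 1 kb of a peak from the broadest 1%. Over all protein-coding genes the shares were 67.3% with a gene-end peak and 3.94% with such a broad peak. Of other cell types' markers, gene-end peaks were present at 5 of 5 cortical excitatory markers, 4 of 5 endothelial and mural markers, 2 of 5 microglia markers, 2 of 3 choroid plexus markers, 1 of 4 red blood cell markers and 1 of 4 liver markers. These lists hold only 3 to 5 genes each, and the part of other cells in the counts below was not tested.

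As background, secreted Fgfs bind receptor tyrosine kinases at the cell surface, and most of them act close to their source with heparan sulphate as cofactor. The receptors signal through the Ras-MAPK cascade, which switches on ETS factors of the Etv group and also the inhibitors of the Sprouty, Spred and Dusp groups, so the pathway restrains itself. Fgf8 from the rostral forebrain midline patterns the telencephalon, and Fgf receptors are used by radial glia of the ventricular zone. A further branch of the family, the Fgf homologous factors, is not secreted and binds voltage-gated sodium channels inside neurons.

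Start sites are shown first, because the accessible starts of 1 gene, Fgf13, differed from its other starts. RefSeq promoters of GRCm38.p6, the assembly that mm10 names, run from 250 bases before a transcription start to 50 bases after it. The table held 33 promoters of 25 members. Not matched were Fgf1, Fgf8, Fgf15, Fgf16, Fgf17, Fgf20, Fgfr1, Etv4 and Spry4. A peak overlapped a listed promoter in 22 of the 25 genes, and in all 22 a peak covered the full 300 bases of a listed promoter. Over all protein-coding genes with a listed promoter, 64.8% had a peak that overlapped one, in full or in part. The exceptions were Fgf6, Fgf21 and Fgf23.

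Fgf13, which encodes an intracellular Fgf homologous factor, lies on the minus strand of the X chromosome and has 4 listed starts. They are numbered in the direction of transcription. Starts 2 and 4 lay under peaks of 3006 bp and 2160 bp, and starts 1 and 3 under none. The 250 bases before each start are printed 5′ to 3′, with each CpG dinucleotide in capitals. They lie at chrX:59585573-59585822, chrX:59567349-59567598, chrX:59166089-59166338 and chrX:59134437-59134686.
Fgf13 start 1, no peak: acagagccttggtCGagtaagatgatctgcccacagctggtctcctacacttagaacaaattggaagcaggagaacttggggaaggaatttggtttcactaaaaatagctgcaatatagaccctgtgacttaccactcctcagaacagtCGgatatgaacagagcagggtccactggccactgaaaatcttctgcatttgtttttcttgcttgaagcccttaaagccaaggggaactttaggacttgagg
Fgf13 start 2, peak: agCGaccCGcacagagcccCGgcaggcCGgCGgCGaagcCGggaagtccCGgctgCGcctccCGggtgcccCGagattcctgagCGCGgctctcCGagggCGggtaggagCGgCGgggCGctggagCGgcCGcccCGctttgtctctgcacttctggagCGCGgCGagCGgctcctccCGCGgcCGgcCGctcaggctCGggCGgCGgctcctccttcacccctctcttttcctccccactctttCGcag
Fgf13 start 3, no peak: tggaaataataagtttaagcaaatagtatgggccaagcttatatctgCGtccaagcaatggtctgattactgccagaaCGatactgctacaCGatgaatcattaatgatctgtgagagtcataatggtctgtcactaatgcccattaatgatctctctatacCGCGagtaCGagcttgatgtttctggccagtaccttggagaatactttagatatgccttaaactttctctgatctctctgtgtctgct
Fgf13 start 4, peak: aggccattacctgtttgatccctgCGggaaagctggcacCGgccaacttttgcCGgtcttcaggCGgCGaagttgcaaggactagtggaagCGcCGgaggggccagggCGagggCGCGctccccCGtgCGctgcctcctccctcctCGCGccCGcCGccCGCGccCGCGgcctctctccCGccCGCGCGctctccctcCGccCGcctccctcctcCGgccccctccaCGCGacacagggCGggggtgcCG

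The stretches under a peak held 33 and 31 CpGs in 250 bases, and those without a peak held 2 and 6. G and C made up 74.8% and 74.4% of the former and 45.6% and 40.4% of the latter. The accessible starts of Fgf13 were thus the CpG-rich ones. Starts 1 and 2 lie 18.2 kb apart and starts 1 and 4 lie 451 kb apart, and neither peak reached another start.

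Listed starts of the other members overlapped more in their CpG counts. In the full 300-base promoters and without Fgf13, the 26 member starts under a peak had a median of 21 CpGs (range 4 to 47). The 3 starts without one, of Fgf6, Fgf21 and Fgf23, had 10, 9 and 6 CpGs, within that range. Over all 32851 promoters in the table the medians were 20 with a peak and 3 without. Fgf18, a ligand of the Fgf8 subfamily, had the most CpGs among members, under a peak of 3525 bp. Fgfr2 had only 4 in 300 bases, and yet lay under the widest gene-end peak of any member, 9421 bp. Fgf11 (5 CpGs) and Fgf10 (10 CpGs) were further starts with few CpGs under a peak. Both ends of this range are printed below as the 250 bases before the start, from the minus strand, at chr11:33147401-33147650 and chr7:130266809-130267058.
Fgf18, peak: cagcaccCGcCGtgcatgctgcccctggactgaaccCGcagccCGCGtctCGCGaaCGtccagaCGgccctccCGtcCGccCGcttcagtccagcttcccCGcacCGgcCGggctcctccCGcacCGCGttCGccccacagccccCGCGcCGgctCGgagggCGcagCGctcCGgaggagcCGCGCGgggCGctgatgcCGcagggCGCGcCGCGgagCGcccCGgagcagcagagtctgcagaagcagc
Fgfr2, peak: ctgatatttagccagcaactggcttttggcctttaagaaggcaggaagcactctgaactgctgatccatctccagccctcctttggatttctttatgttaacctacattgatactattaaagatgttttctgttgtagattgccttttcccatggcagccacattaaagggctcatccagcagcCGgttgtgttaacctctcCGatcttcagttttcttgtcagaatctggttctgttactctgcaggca

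Fgf21, the metabolic hormone made mainly in liver, is a further member with a printed start. It had no peak, and 28 bases before the start its promoter holds a TATA box, the only part in capitals in the line below (minus strand, chr7:45615491-45615740).
Fgf21, no peak: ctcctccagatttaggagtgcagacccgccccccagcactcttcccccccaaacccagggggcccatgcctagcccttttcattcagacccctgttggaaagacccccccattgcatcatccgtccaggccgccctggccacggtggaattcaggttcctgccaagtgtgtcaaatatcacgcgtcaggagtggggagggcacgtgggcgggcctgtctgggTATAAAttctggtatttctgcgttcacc

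Short motifs were searched as exact letters on both strands of the 300-base promoters, and none of the 5 searched for was frequent at the members. The ETS motif CCGGAAGT, the cyclic AMP response element TGACGTCA and the homeodomain motif TAATTA were in 0 of 33 member promoters, against 3.89%, 1.79% and 5.29% of all promoters. The MEIS motif TGACAG was in 4 of 33, at Fgf4, Fgf12, Fgf13 start 3 and Spry1, against 19.2% of all promoters. TATAAA was in 3 of 33, at Fgf5, Fgf21 and Fgf13 start 3, against 13.6%. Of these starts, that of Fgf5 lay under a peak, of 1427 bp, and the others under none. None of the 5 motifs contains another, and a missing match says only that these letters are absent from this window.

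Gene ends were next compared over all 34 members, including those without a listed promoter. Of the members, 30 of 34 (88.2%) had a gene-end peak, against 67.3% of 21770 protein-coding genes. To allow for gene length, protein-coding genes were put in 10 equal length classes by span. With the members' mix of length classes the share over all genes was 73%. By role, gene-end peaks were present at 14 of 15 paracrine ligands, which act on nearby cells, and at 1 of 3 endocrine ligands, which act as hormones. All 4 receptors and all 8 feedback and target genes had one, as did 3 of 4 intracellular genes.

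The 4 genes without a gene-end peak were Fgf6, Fgf21, Fgf23 and Fgf13. Fgf6 is a ligand known from skeletal muscle and Fgf23 a bone hormone of phosphate balance. Fgf13 had none at the ends of its span, but its starts 2 and 4, inside the span, lay under peaks. On the X chromosome 48.2% of protein-coding genes had a gene-end peak. The other X-linked member, Fgf16, a ligand of the Fgf9 subfamily, had one of 2557 bp.

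Gene-end peaks differed widely in width among the members that had them. With the widest peak at either end taken for each gene, values ran from 603 bp at Fgf7, 867 bp at Fgf22 and 1093 bp at Fgfr4 to 9421 bp at Fgfr2. Of these members, 21 of 30 lay above 1741 bp, the median of all protein-coding genes with a gene-end peak, against 50% of those genes by construction. All 8 feedback and target genes were above it, from 1847 bp at Spry1 to 5440 bp at Dusp6. The peak of 3169 bp at Spry4 also overlapped the neighbouring gene Arhgap26, so it cannot be given to Spry4 alone. Of paracrine ligands with a gene-end peak, 7 of 14 were above the median, among them Fgf17 with a peak of 2651 bp that also overlapped Dmtn.

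**Figure D1:**
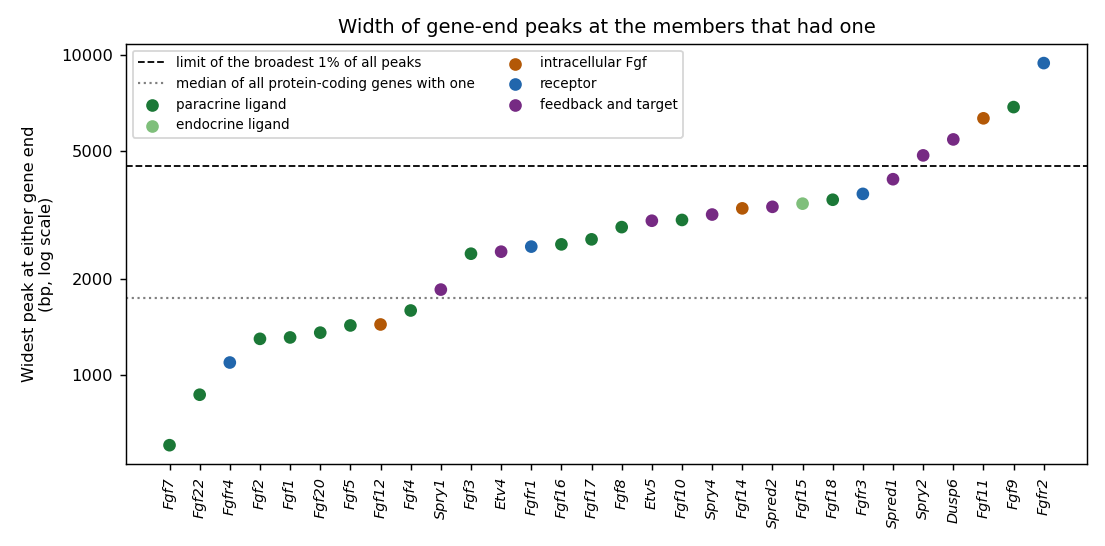
Widest peak at either gene end for the 30 members that had one, in bp on a log scale, coloured by role. The dashed line marks 4479 bp, the limit of the broadest 1% of all peaks, and the dotted line 1741 bp, the median of all protein-coding genes with a gene-end peak. Spry2, Dusp6, Fgf11, Fgf9 and Fgfr2 lie above the dashed line.

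Peaks of the broadest 1%, wider than 4479 bp, lay within 1 kb of 5 of 34 members (14.7%) against 3.94% of protein-coding genes. They were at Fgfr2 (9421 bp), at Fgf9 (6865 bp), a ligand made by neurons and glia, at Fgf11 (6332 bp), at Dusp6 (5440 bp), a phosphatase that inactivates ERK, and at Spry2 (4850 bp), an inhibitor of receptor signalling. Spry2 lay just inside the limit and Spred1, with 4086 bp, just outside it. The peak at Fgf11 also overlapped the neighbouring gene Tmem102, so it cannot be given to Fgf11 alone. With the broadest 5% of peaks the count was 20 of 34 (58.8%) against 17.3%.

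Away from gene ends, the number of distal peaks, those within 1 kb of no annotated gene end, was set against genes of similar span. All 34 loci held a peak, against 85.9% of protein-coding genes, and 33 held a distal peak, against 79.6%. The median was 6 distal peaks per member locus and 3 over all protein-coding loci. More distal peaks than the median of the own length class were found at 22 of 34 members, against 43.2% of all protein-coding genes. Fgf9 equalled that median and 11 members lay below it.

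By role, the median was 8.5 distal peaks at the 4 receptors, 6.5 at the 8 feedback and target genes, 7 at the 4 intracellular genes and 4.5 at the 18 secreted ligands. All 4 receptors and all 8 feedback and target genes exceeded the median of their length class. Among secreted ligands 9 of 18 did, and among intracellular genes 1 of 4. Another way to give peaks to genes changed this order. When each distal peak counted only for the protein-coding gene with the nearest end, the medians were 5 for receptors, 7 for feedback and target genes, 5 for intracellular genes and 1 for secreted ligands, with 1 over all genes.

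**Figure D2:**
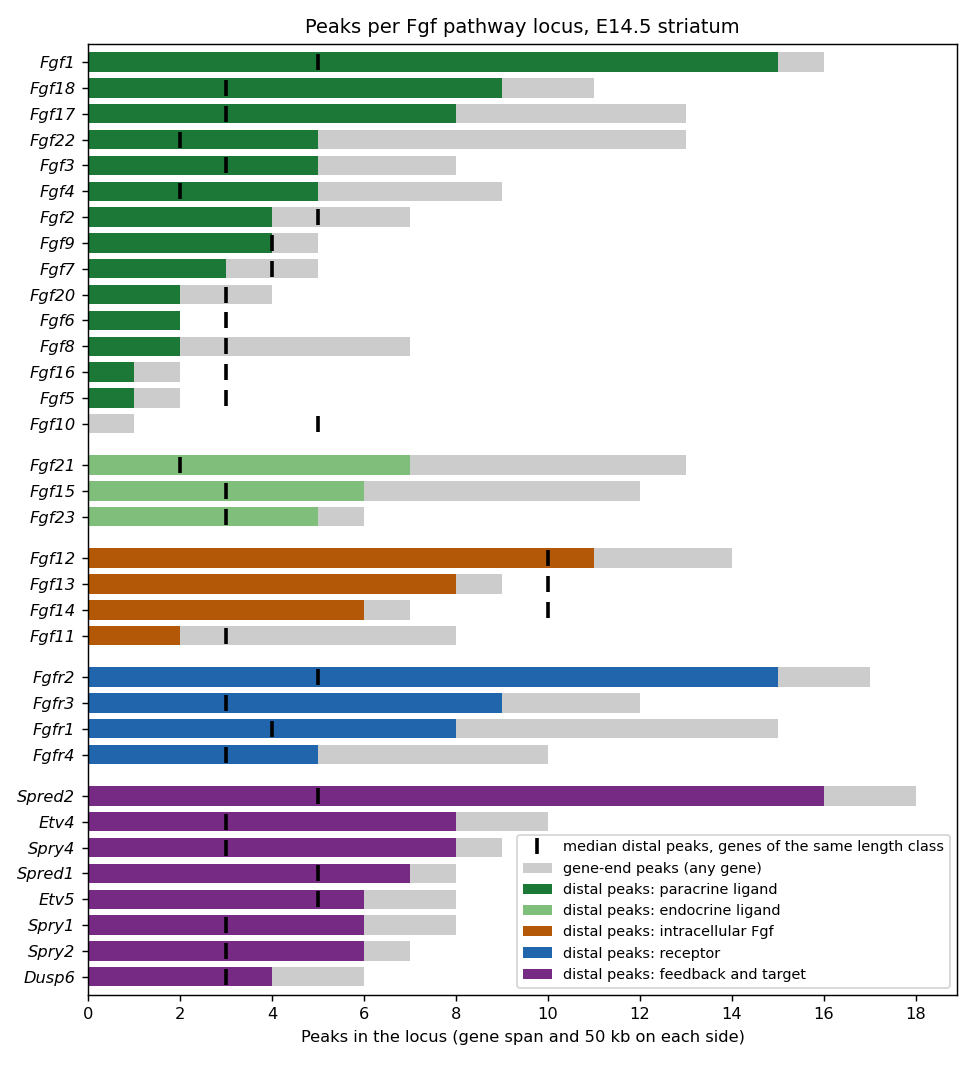
Number of peaks in each of the 34 loci, with distal peaks coloured by role and peaks at any gene end in grey. Black ticks give the median number of distal peaks in the length class of each gene. All receptors and all feedback and target genes pass their tick, while Fgf10 has no distal peak against a tick at 5.

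The share of a locus covered by peaks gave a related picture for receptors. It ranged from 10.6% to 19.1% at the 4 receptors, and the median over all protein-coding loci was 4.26% (quartiles 1.58% and 8.3%). Cover includes peaks over neighbouring genes. At Fgfr4 these peaks were 4421 bp at Nsd1 and 1637 bp at Zfp346, of 13.5 kb covered. The Fgfr1 locus included 2552 bp at Letm2 and 2408 bp at Nsd3, and the Fgfr3 locus 1523 bp at Letm1. No peak in the Fgfr2 locus met another protein-coding gene. Over 10% was covered at 11 of 34 members, against 18.9% of protein-coding genes. Besides the receptors these were Fgf4, Fgf8, Fgf11, Fgf15, Fgf17, Fgf21 and Fgf22, none of them longer than 6.88 kb. Of feedback and target genes none passed 10%, and their range was narrow, from 5.35% to 8.83%. More cover than the median of the own length class was found at 22 of 34 members, against 48.8% of all genes.

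**Figure D3:**
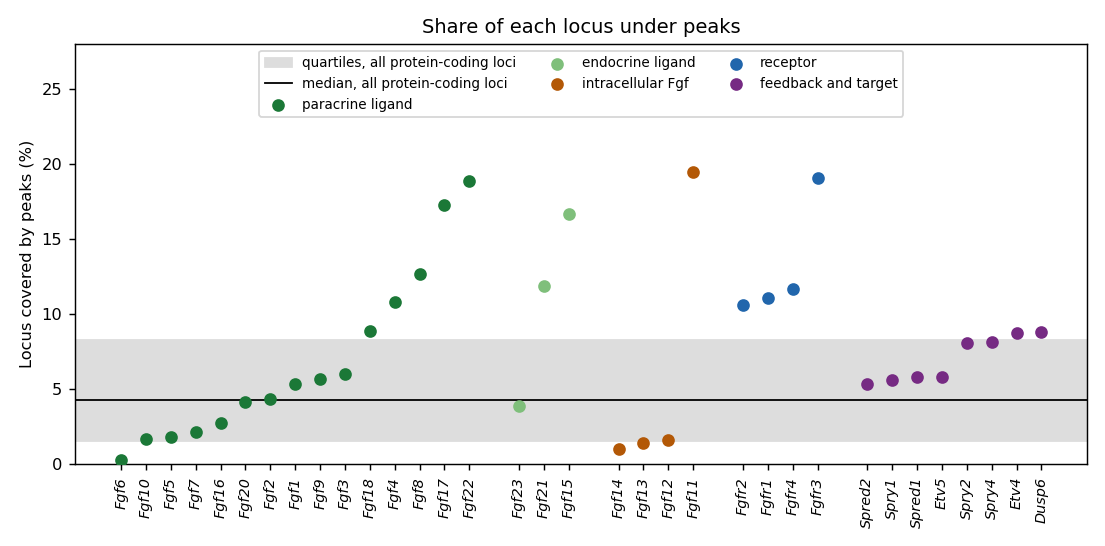
Percentage of each locus (gene span and 50 kb on each side) that lies under peaks, by role. The grey band and the black line give the quartiles and the median, 4.26%, of all protein-coding loci. All 4 receptors lie above the band, Fgf12 (1.61%) lies just above its lower edge, and Fgf13 and Fgf14 lie under it.

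Ligand loci ranged from nearly empty to dense. Fgf10, a ligand of lung and limb outgrowth that is also used by early radial glia, had 1 peak in a locus that includes a 77.9 kb gene. That peak of 3048 bp lay over the start, and the nearest other peaks were 310 kb and 265 kb away. Its percentile for distal peaks in its length class was 3.63. Fgf5, a hair growth regulator, and Fgf16 had 2 peaks each, a gene-end peak and 1 distal peak. Fgf6 also had 2, of 12 bp and 291 bp, which together covered 0.278% of its locus, the lowest value of any member.

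Fgf1 had the most distal peaks of any ligand, 15 of 16, and 7 of them lay inside the gene. Fgf1 lies within Arhgap26, and all 16 peaks lay inside that gene too, so position does not tell to which gene they belong. Fgf2, the ligand widely used to grow neural stem cells, had 4 distal peaks of 7, and its start peak measured 1296 bp. Fgf7 had 3 distal peaks and lies inside the span of Fam227b. Fgf9 had 4 distal peaks, of 120 to 469 bp, beside its start peak of 6865 bp. Fgf20, of the same subfamily, had 2 distal peaks and a gene-end peak of 1355 bp.

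Within the Fgf8 subfamily of patterning ligands, all 3 genes had gene-end peaks. Fgf8 is 6.45 kb long and was met by 3 peaks, of 1389, 1579 and 2895 bp, among them a gene-end peak at each end. It had 2 distal peaks, 1 inside the gene and 1 that lay 17.9 kb away. Fgf18 had 9 distal peaks, 8 of them outside the gene and on both sides of it, up to 48.6 kb from the gene. Fgf17 had 8, but 7 of these lay inside other genes, 5 of them in Dmtn, whose end lies 0.155 kb from Fgf17. None was nearest to an end of Fgf17.

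No distal peak was nearest to an end of Fgf11, Fgf16, Fgf21 or Fgf22 either. Fgf22, a ligand of synapse formation, had 13 peaks in a gene-dense stretch, and its 5 distal peaks all lay in Rnf126, Prss57 and Palm. Fgf21 likewise had 13 peaks, none over the gene, with 6 of its 7 distal peaks inside Rasip1, Mamstr and Fut2. High counts at these short ligand genes thus lay mostly over neighbours.

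Several members are neighbours and share peaks, which matters for counts by gene. On chromosome 7 Fgf3, Fgf4 and Fgf15 lie 18 kb and 31.3 kb apart. They shared 9 peaks, 3 of them in all 3 loci, while each of the 3 genes had its own gene-end peak, of 2391 bp at Fgf3, 1589 bp at Fgf4 and 3427 bp at Fgf15. Fgf15, whose product is a gut hormone in the adult and is made in the embryonic forebrain, had 6 distal peaks and Fgf3 and Fgf4 had 5 each. Fgf6 and Fgf23 are 48.2 kb apart and shared 1 peak. In all, 10 of the 289 peaks lay in more than 1 member locus.

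Intracellular Fgf genes were long and sparse, except for Fgf11. Fgf12, Fgf13 and Fgf14 span 595, 523 and 703 kb, and 1.61%, 1.42% and 1.03% of their loci lay under peaks, against a median of 3.01% in the class of the longest genes. Fgf12 had 11 distal peaks, Fgf13 8 and Fgf14 6, and the median of that class was 10. The X-linked Fgf13 had 9 peaks in all, where the median X-linked locus had 2, but these loci were not matched for length. With its gene of 523 kb, the Fgf13 locus held 1.44 peaks per 100 kb. Fgf11, at 6.88 kb, had 2 distal peaks, and 19.5% of its locus was covered, with 4 of its 8 peaks at ends of other genes only.

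Starts inside these genes accounted for several of their peaks. Of 10 listed starts at the 4 genes, 8 lay under a peak. Over all 32851 listed promoters, 16899 overlapped a peak. All 4 starts of Fgf12 did, 2 of them under 1 shared peak of 1451 bp, and the widest, of 2750 bp, lay at the start farthest inside the gene. The peaks at inner starts of Fgf12, Fgf13 and Fgf14 were counted as distal because they are far from the ends of the gene span. The listed start of Fgf14 lay inside the gene under a peak of 1895 bp, and its gene-end peak was wider, at 3313 bp.

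**Figure D4:**
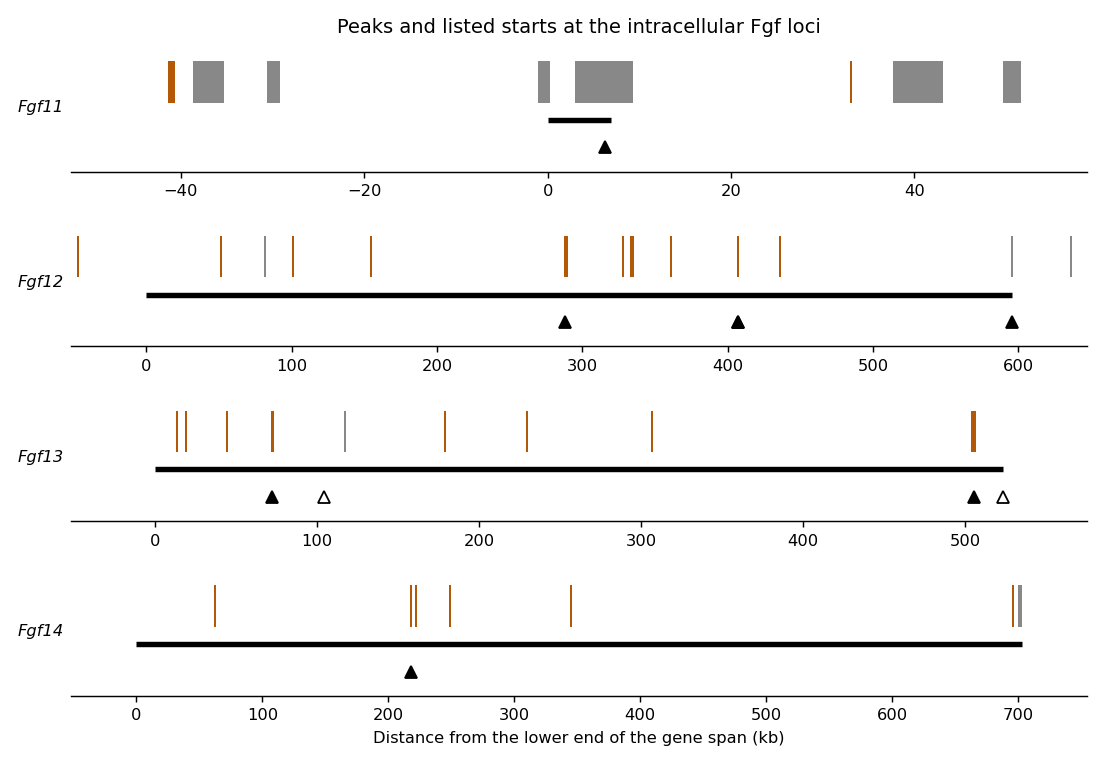
Peaks and starts at the 4 intracellular Fgf loci, by distance in kb from the lower end of the gene span. Brown blocks are distal peaks, grey blocks peaks at any gene end, filled triangles listed starts under a peak and open triangles listed starts without one. Fgf13 has 2 starts of each kind.

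Receptors differed in where their distal peaks lay. Fgfr2 (chr7:130162451-130266808) had 17 peaks, 15 of them distal and 11 of those inside the gene, spread over 84 kb with widths of 29 to 1863 bp. The peak of 9421 bp covered its start and lay mostly inside the gene. Its percentile for distal peaks in its length class was 93, as at Fgf1.

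Fgfr3 (chr5:33721724-33737068), a receptor known from ventricular zone progenitors and astrocytes, had 12 peaks, 9 of them distal. Of these, 8 lay upstream of the start, in the interval between Tacc3 and Fgfr3, which is 49.5 kb long. The run spanned 33.4 kb from 33674264 to 33707638 and held 15.6 kb of peaks, 70.6% of all covered bases in the locus. Its widest peak measured 6366 bp, which belongs to the broadest 1%, and ended 21.4 kb before the start. The only distal peak on the other side lay inside the gene and was 718 bp wide.

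Fgfr1 (chr8:25518759-25575718) had 15 peaks and 8 distal ones, of which 3 lay inside the gene, with widths up to 2927 bp. A further peak of 3003 bp inside the gene lay at the end of a non-coding gene and is therefore not counted as distal. Both span ends of Fgfr1 had a gene-end peak. Fgfr4 (chr13:55152818-55168759), a receptor best known from liver and muscle, had the fewest, with 10 peaks and 5 distal ones. Its widest gene-end peak, of 1093 bp, was narrower than the widest of each other receptor, and 4 of its distal peaks lay beyond its far end, 18.5 to 36.6 kb from the start.

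**Figure D5:**
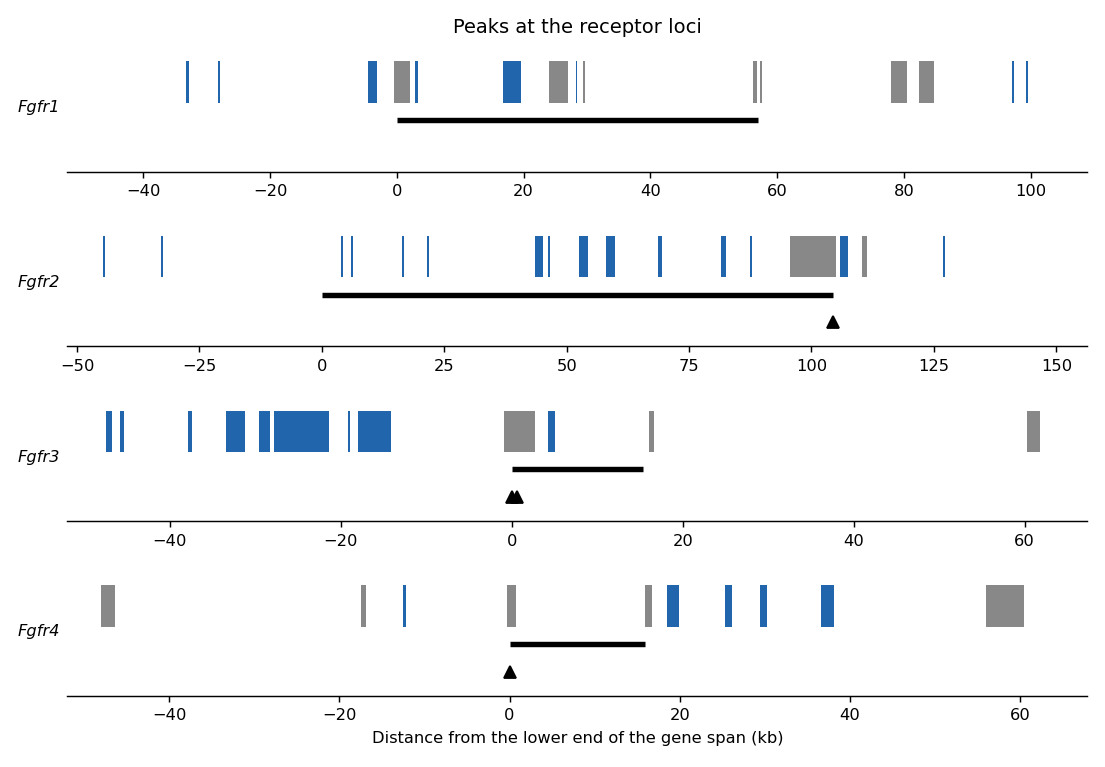
Peaks at the 4 receptor loci, drawn by distance in kb from the lower end of the gene span. Black bars are gene spans, blue blocks distal peaks, grey blocks peaks at any gene end, and triangles listed starts (none was matched for Fgfr1). Distal peaks of Fgfr2 lie mostly inside the gene and those of Fgfr3 in a run before the start.

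Feedback and target genes had the narrowest range of cover among the roles. Spred2, an inhibitor of Ras signalling, had 18 peaks and 16 distal ones, the most of any member, with 11 inside the gene over 58 kb. These were small, with widths from 72 to 1307 bp. Spred1 had 8 peaks and 7 distal ones. Among Sprouty genes, which encode inhibitors induced by Fgf signalling, Spry4 had 8 distal peaks, 4 of them inside its 15.1 kb gene, and Spry1 and Spry2 had 6 each. Spry2 and Dusp6 are short genes, of 4.87 and 4.26 kb, and Dusp6 had 4 distal peaks, of 5 to 1361 bp.

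Both ETS factor genes, whose products carry the transcriptional response to Fgf, were above their length classes. Etv4 had 8 distal peaks, of which 5 lay between 5.73 and 46.7 kb beyond 1 end of the gene, and the widest of them was 2806 bp. Etv5 had 6 distal peaks, of which 5 lay inside its 58.3 kb gene, and 1 of those was 2680 bp wide. Its 2 listed starts lay under 1 peak of 3031 bp.

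The position of distal peaks was also set against how much of the loci the member genes themselves fill. Of 201 different distal peaks at the members, 38.3% lay inside a member gene, 19.9% inside another protein-coding gene and 41.8% outside protein-coding genes. Over all distal peaks of the series 45.6% lay outside. At intracellular genes 24 of 27 (88.9%) lay in the own gene, which fills 82.1% of these loci. At secreted ligands 19.7% lay in the own gene, which fills 20% of the loci, and 33 of 76 lay in another gene. Both shares were thus close to the share of the locus. At receptors 40.5% of distal peaks lay in the own gene, which fills 32.5% of the loci, and at feedback and target genes 37.7%, with 24.8% of the loci filled. At receptors 20 of 37 and at feedback and target genes 35 of 61 lay outside protein-coding genes. Median widths of distal peaks ran from 432 bp at feedback and target genes to 554 bp at intracellular genes, beside 488 bp over all distal peaks.

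Other genes of the pathway, from a list of 37 of which 36 had an entry in the gene table, mostly had accessible ends. Of the 36, 34 had a gene-end peak (94.4%), against 67.3% of protein-coding genes, and the median was 5 distal peaks, against 3. All 9 adaptors, all 9 Ras-MAPK genes and all 9 further target or feedback genes had one. The exceptions were Klb, a co-receptor of some endocrine Fgfs, and Fgfbp1, a carrier protein of secreted Fgfs. Most distal peaks were at Flrt1 with 33, at the adaptor gene Gab1 with 15 and at Ptpn11, the phosphatase of Ras activation, with 12. Nras, a Ras gene, had none.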

How the data were processed

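Single-nucleus ATAC-seq of E14.5 striatum gave 2 libraries in 1 group. The submitters' processing notes list Signac and Cell Ranger ATAC 1.2.0 as tools and mm10 as the build, with no role for either tool. The peak caller, any pooling of libraries before it and the handling of doublets are not given in the sources used here. The authors deposited 87174 peak positions without values. The list does not say whether starts count from 0 or 1, so a printed start may be 1 base too low. The smallest gap between neighbouring peaks was 501 bp.

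Genes, promoters and sequences came from RefSeq tables of GRCm38.p6. Entries on scaffolds, off the main chromosomes or with a repeated symbol were left out. These were 406 of 49997 gene entries, which left 49591 (21770 protein-coding). The promoter table matched 25 of 34 members. Peaks were counted in Python 3.11.15 with pandas 2.3.3, by a script tested on simulated data. The gene table gives no strand, so gene-end peaks can lie at either end. Members, classes, lists and the rule for named genes (all receptors, the 3 members of each other class with most distal peaks, and members with a broad peak, shared peaks or an empty locus) were chosen with earlier results of these data known. Other members, such as Fgf2, Fgf5, Fgf7, Fgf8, Fgf10, Fgf16, Fgf20, Fgf22, Spred1, Spry1 and Etv5, fall outside that rule and were singled out after their values were seen. Alternatives were other flanks, gene-end windows, peak widths, peak midpoints, length classes, limits for broad peaks, the nearest gene end and covered bases in place of distal peaks.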

Additional observations from a re-analysis of the deposited data

How the results depend on the processing

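Leaving out a library was not possible, because the list is not split by library, and no paired analysis was possible because there is only 1 group. Of 49 recalculated values over 9 results, 33 stayed within 1.5 times the reported value. The number of members with a gene-end peak (27 to 32) and with a peak at a listed start (22 in each) did. So did the number with more distal peaks than their length class (21 or 22). With covered bases in place of distal peaks, that last number was 23. Over all protein-coding genes, the share with a gene-end peak moved between 61.1% with peak midpoints and 71.4% with a window of 2500 bp. Those settings also gave the 27 and the 32 members. For the other counts, the share over all genes under each setting is not given here. Different peaks at the loci numbered 151 with a flank of 10 kb, 441 with 100 kb and 162 with only peaks wider than the median. Median distal peaks per locus at secreted ligands were 1, 8.5 and 1.5 under these settings, at receptors 3, 13 and 5, and at feedback and target genes 2.5, 10 and 3, with 1, 6 and 1 over all protein-coding loci. At intracellular genes the medians under these settings were 7, 8 and 3. With a flank of 10 kb the intracellular genes, not the receptors, thus had the highest median. With each peak given to the nearest gene end, the medians were 1 at secreted ligands and 5 at receptors. The broadest 5% of peaks gave 20 members with a broad peak. By construction, a flank changes the window, the width limits change the number of peaks kept, and the nearest end gives each peak to 1 gene only. Without counts or depth, a missing peak means only that none was called.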

Other observations

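The following items were chosen after their values were seen. Peaks over D-type cyclin genes lay in the loci of a pair of endocrine ligands. At the Fgf15 locus, 5 peaks met Ccnd1, among them 1 of 6776 bp, the widest peak in that locus. At the Fgf23 locus, 1 peak of 603 bp met Ccnd2. A ligand gene and a Sprouty gene lay near each other in 2 places, Fgf2 and Spry1 at 230 kb and Spry4 and Fgf1 at 237 kb, and their loci shared no peak.

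Among the other pathway genes, 7 of 36 lay within 1 kb of a peak of the broadest 1%, against 3.94% of all protein-coding genes. These were all 3 Flrt genes, which encode adhesion proteins that bind Fgf receptors, with 8025 bp at Flrt2, 5440 bp at Flrt1 and 4803 bp at Flrt3. The other 4 were the feedback or target genes Dusp4 (6268 bp), Spred3 (5443 bp), Egr1 (5283 bp) and Fos (5052 bp). No adaptor and no Ras-MAPK gene on the list had one.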
